A study of Arabidopsis thaliana with 30 samples.

Results

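In hypocotyl explants of Arabidopsis thaliana, 70 of the 36635 rows of a gene count table were lower in the hsfa1abd-2 mutant than in the wild type at 0.5, 1 and 3 h after cutting. Rows were chosen by measured values: the log2 of 1 plus the mean CPM (a count divided by the library's total and scaled to a common size) had to be lower in the mutant by 0.8 or more at each of these 3 times. The wild-type mean also had to reach 10 CPM at one or more of them, which 13090 rows did. Libraries at 0 and 24 h had no part in the choice, so the differences at 0.5, 1 and 3 h are described here without a test and those at 0 and 24 h are tested. The rows carry no gene identifier, and none was inferred from their order. Each row is therefore called a feature and, where numbered, numbered from the first data row.

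The letters of the hsfa1abd-2 name stand for the HSFA1A, HSFA1B and HSFA1D genes. As background, these encode transcription factors that bind heat shock elements in promoters and start the heat response of plants. Among their known targets are further heat shock factors and the chaperones that refold damaged proteins, and the chaperones in turn hold the factors inactive in unstressed cells. The question asked of the features is which were already low at 0 h and which lacked the increase that the wild type showed.

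The groups were hsfa1abd-2 and Col-0 wild-type explants at 0, 0.5, 1, 3 and 24 h, and each of the 10 groups had 3 biological replicates. Seedlings of both genotypes, both labelled with the Col-0 ecotype, had grown in darkness for 7 days, and about 50 cut hypocotyl explants were pooled per replicate. The 0 h explants also carry the wounding label, and no uncut seedlings were analysed here, so the hours since cutting cannot be told apart from the hour of day or, at 24 h, from tissue age. The labels do not describe the mutant alleles, and the targeted genes and any tissue markers could not be looked up among rows without identifiers. Because whole tissue was sequenced, fewer cells of a type and less RNA per cell cannot be told apart.

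Libraries held 3164714 to 4296509 counts, apart from wild-type 0.5 h replicate 1 with 578179. In that library 3 counts correspond to 5.19 CPM, against 0.698 to 0.948 CPM in the others. Without it the rule chose 68 features, 66 of them among the 70. The choice was repeated without each of the 18 libraries of 0.5, 1 and 3 h in turn, and 50 of the 70 features were chosen every time. At most 7 were lost at once, without hsfa1abd-2 3 h replicate 2. Near the limit, the weakest of the 3 differences was -0.81, -0.81 and -0.82 in the nearest features inside and -0.80, -0.79 and -0.78 in the nearest outside. A further 7 rows passed all 3 differences with wild-type means below 10 CPM, the highest of them at 9.85 CPM.

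The 70 features were sorted by what they did relative to 0 h, using the same step of 0.8 on the log2 scale. In 26 the mutant was already lower by 0.8 or more at 0 h, and these are called low at 0 h. In 23 others the wild type reached at least 0.8 above its own 0 h level at one or more of 0.5, 1 and 3 h while the mutant did so at none, and these are called failing to rise. In 7 both genotypes reached that increase and the mutant stayed lower, called rising less. In 7 the wild type did not reach it and the mutant dropped by at least 0.8 at one or more times, called falling in the mutant. This class sets no limit on a drop in the wild type. The last 7 met none of these conditions. Classes rest on 0 h values, so no test at 0 h is given within a class. Of the 70, 49 stayed in their class whichever of the 6 libraries at 0 h was left out. The step is a range and not a gap, since the differences at 0 h ran through -0.95, -0.95 and -0.80 just inside the limit and -0.79, -0.77 and -0.76 just outside it.

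**Figure D1:**
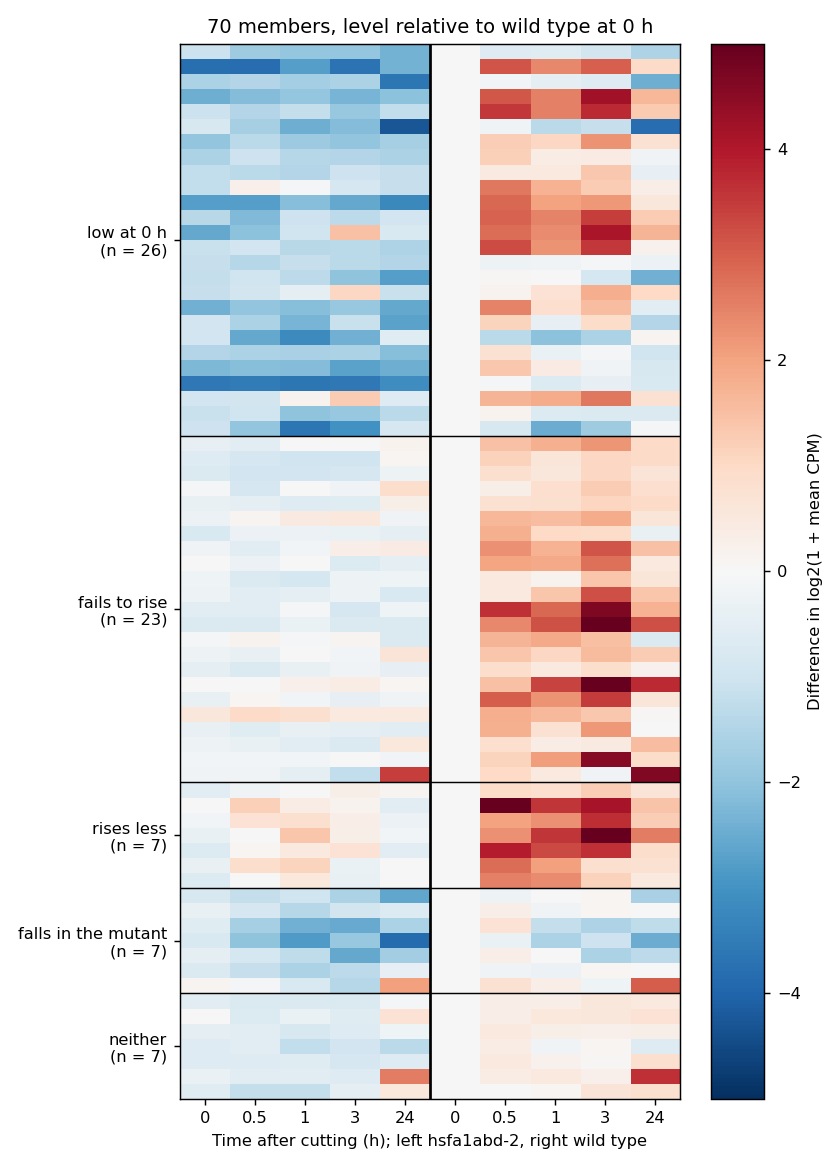
Each row is 1 of the 70 features, ordered by class and then by wild-type CPM, and each column a group mean (left hsfa1abd-2, right wild type, at 0, 0.5, 1, 3 and 24 h after cutting). Colour is log2(1 + mean CPM) minus the wild-type value at 0 h, with the scale ending at 5 either way. The 26 features low at 0 h are blue in the first mutant column, and the 23 failing to rise are red in the wild type at one or more of 0.5, 1 and 3 h.

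At the first sampling, 0 h, hsfa1abd-2 was lower in 34 of the 70 features and higher in none (edgeR quasi-likelihood, Benjamini-Hochberg adjusted over 18526 tested features). Of all tested features 1.45% were called lower and 0.421% higher, and among the rows with 10 CPM or more in the wild type 2.01% lower and 0.374% higher. All 70 features passed the filter on low counts. The fold was below 0 in 67 of them, with a median of -0.81 on the log2 scale, against -0.01 over all tested features. In log2(1 + mean CPM), 26 of the 70 (37.1%) differed by -0.8 or more strongly, against 0.642% of the rows with 10 CPM or more. At an unadjusted p under 0.05, 67.1% of the 70 differed, compared with 14.6% of all tested features. The mutant libraries all lay below the wild-type libraries at 0 h in 47 of the 70, against 11.8% of the rows with 10 CPM or more. The 34 calls became 21 without hsfa1abd-2 0 h replicate 2 and 21 without replicate 3. Calls in both directions over all tested features were 74 and 83 in those fits, against 346 with every library. Of the 34 calls, 22 were in the class low at 0 h and 12 in other classes, 5 of them failing to rise. In the class low at 0 h, 4 of the 26 were not called. These counts are a description, since the classes use 0 h values.

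A day after cutting, 57 of the 70 were lower in hsfa1abd-2 at 24 h and none was higher by the same test, against 10.3% lower and 10.6% higher over all tested features and 12.8% lower among the rows with 10 CPM or more. The median fold was -1.13 on the log2 scale, against -0.06 over all tested features. A fold of at least 2 with a call was found for 39, against 311 of the 18526 tested features. The 2 features without a mutant count at 24 h left this median as it was when set to their bound. At 0 h, 4 features had no mutant count, and with 2 of them at their bound and 2 left out, whose wild-type level was also under the floor of 3 counts, the median there was -0.78. Of the 34 features lower at 0 h, 31 (91.2%) were lower at 24 h, and these are 54.4% of the 57. Another 26 were called at 24 h and not at 0 h, 3 at 0 h and not at 24 h, and 10 at neither time. These contrasts share no library, although a common fit estimates the spread of both. The overlap of calls was not counted over all tested features.

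A rule with the sign turned, which asks for 0.8 or more above the wild type at the same 3 times and a mutant mean of 10 CPM or more at one of them, chose 100 features. Of these, 16 were called higher in the mutant at 0 h and 49 at 24 h, against 0.421% and 10.6% of all tested features. None of the 100 was called lower at either time.

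**Figure D2:**
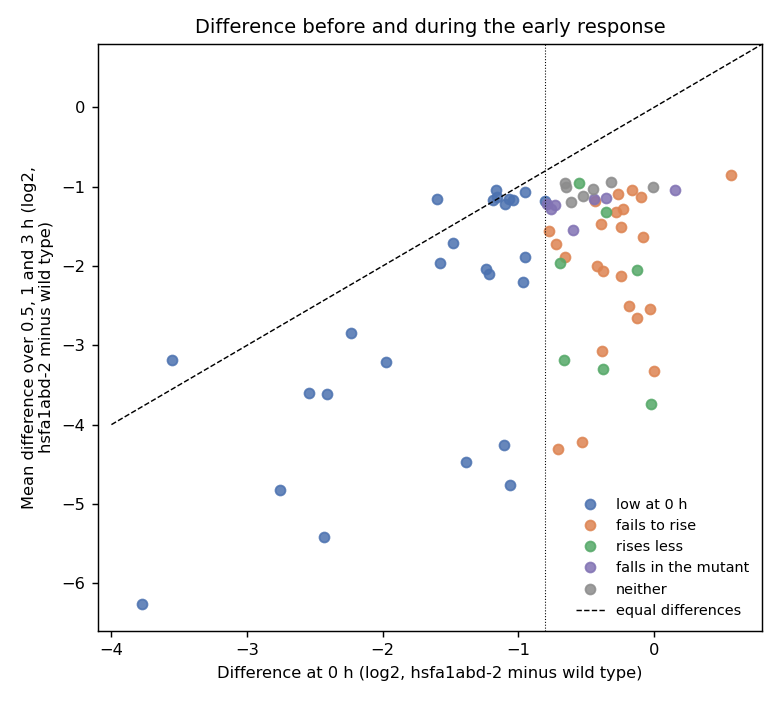
For each of the 70 features the difference at 0 h is on the x axis and the mean difference over 0.5, 1 and 3 h on the y axis, both as hsfa1abd-2 minus wild type in log2(1 + mean CPM). Colours mark classes, the dotted line is the limit of -0.8 and the dashed line marks equal differences. Below the dashed line lie 65 features, with a wider difference over 0.5, 1 and 3 h than at 0 h. By the rule, every feature right of the dotted line must lie below the dashed one.

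The difference at 0 h was compared with the mean difference over the 3 times after cutting, which the rule used. At 0 h, 28 features held 50% or more of that difference and 20 held less than 20%, with a median of 38.4% over the 70. For features low at 0 h the median share was 69.4%, and for those failing to rise 16.3%. Classes were cut on the difference at 0 h, so a higher share in the first class follows from the definitions. In 65 of the 70 the gap was wider after cutting than at 0 h. The separation into low from the start and lacking an increase is thus gradual in these values, with 16 of the 26 features low at 0 h also at least 0.8 above 0 h in the wild type.

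The features low at 0 h were split by whether the wild type reached an increase of 0.8, so the split itself bears on whether the early gap widens and the values are a description. In 10 of the 26 the wild type did not reach an increase of 0.8, and in these the median difference was -1.13 at the start, -1.19 after 0.5 h, -1.24 after 1 h, -1.15 after 3 h and -0.82 after 24 h. In the other 16 the median difference was -1.48 at the start, -3.84 after 0.5 h, -2.91 after 1 h, -3.01 after 3 h and -2.03 after 24 h. These features had a median of 4.69 CPM in the mutant at 0 h and of 17.63 CPM in the wild type. Their wild-type median was 93.0 CPM at 3 h, while the mutant median was 5.69 CPM.

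Feature 14832 took the most counts among the features low at 0 h, as CPM not divided by gene length. It had 1666, 1108 and 1217 CPM in hsfa1abd-2 at 0 h, against 2604, 3088 and 2676 CPM in the wild type. At 3 h it had 946, 491 and 774 CPM in the mutant and 1490, 1329 and 1614 CPM in the wild type. Both genotypes were lower at the later time, and at neither time did their libraries overlap. At 24 h the mutant held 598, 451 and 557 CPM and the wild type 1094, 930 and 828 CPM. This is a log2 fold of -0.93 (SE about 0.231, edgeR adjusted p = 0.00524), with every mutant library below every wild-type one.

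Feature 12771, second in that order, had 5.06, 6.32 and 5.17 CPM in the mutant at 0 h and 81.0, 78.0 and 105 CPM in the wild type. At 0.5 h it had 5.92, 5.31 and 4.83 CPM in the mutant, against 820, 697 and 847 CPM in the wild type, and at 3 h the mutant had 4.11, 8.58 and 5.21 CPM and the wild type 557, 761 and 804 CPM. Wild-type levels were thus several times their 0 h value, while mutant libraries stayed below 10 CPM at these times. At 1 h the mutant libraries held 9.80, 9.87 and 16.5 CPM and the wild-type libraries 536, 479 and 391 CPM. At 24 h, with 9.26, 19.4 and 20.01 CPM in the mutant and 143, 202 and 170 CPM in the wild type, the log2 fold was -3.51 (SE about 0.227, edgeR adjusted p = 3.57e-11).

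**Figure D3:**
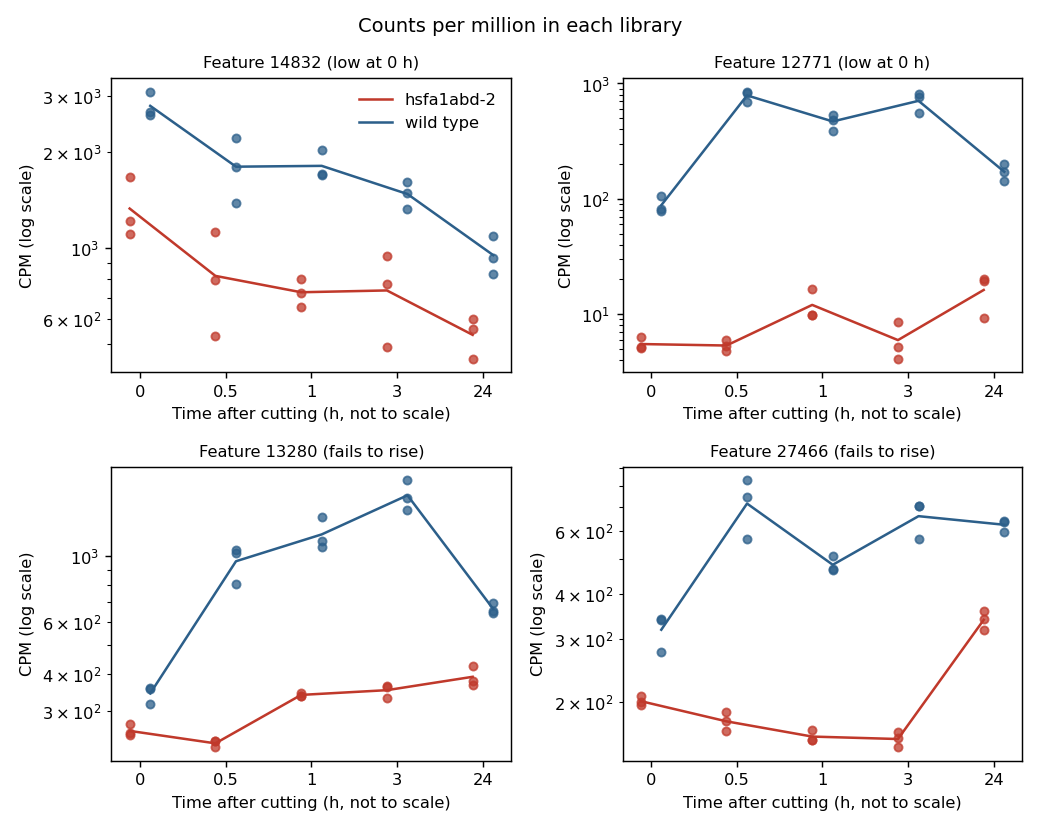
CPM of the 4 numbered features in each library (points, n = 3 per group) with group means joined by lines, at 0, 0.5, 1, 3 and 24 h after cutting, on a log axis whose times are not to scale. Red is hsfa1abd-2 and blue the wild type; features 14832 and 12771 are apart at 0 h by -1.07 and -3.77 in log2(1 + mean CPM), features 13280 and 27466 by -0.42 and -0.66.

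Other features low at 0 h showed the range of courses. The third in the order of wild-type CPM had 175, 112 and 123 CPM in the mutant at 0 h, against 398, 421 and 428 CPM in the wild type, and at 24 h the mutant had 37.0, 27.0 and 34.6 CPM and the wild type 84.7, 60.7 and 80.2 CPM. Both genotypes were lower at 24 h than at 0 h, with the mutant below at both times. The fourth had 2.74, 3.55 and 6.37 CPM in the mutant at 3 h and 374, 493 and 572 CPM in the wild type, where it had started at 22.6, 24.6 and 28.6 CPM. Its mutant libraries ranged from 2.01 to 5.304 CPM at 0 h, so no mutant level near the wild-type one was seen at any of the 5 times.

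The feature ranked 23 in that order was at most 1.84 CPM in every mutant library. It had 0.964, 0.574 and 1.43 CPM in the mutant at 0 h, against 22.9, 21.1 and 23.3 CPM in the wild type. At 3 h the mutant had 0.274, 1.77 and 0.868 CPM and the wild type 17.8, 14.4 and 17.3 CPM. Neither genotype was 0.8 above its 0 h level at 0.5, 1 or 3 h, and no library of one genotype overlapped the other at 0 or 3 h.

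In 5 of the 26 the mutant itself reached 0.8 above its 0 h level. The widest such increase, 4.03 on the log2 scale, belonged to the thirteenth feature in the order. It had 19.2, 26.9 and 12.4 CPM in the mutant at 3 h and 95.5, 135 and 138 CPM in the wild type. At 0.5 h it had 0.592, 0.313 and 1.42 CPM in the mutant, against 51.9, 36.7 and 59.4 CPM in the wild type. The wild type was thus far above the mutant at 0.5 h, and both genotypes were highest at 3 h.

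The 23 features failing to rise had a median difference of -0.27 at the start, -1.60 after 0.5 h, -1.51 after 1 h and -1.89 after 3 h. Among 0.5, 1 and 3 h, with 24 h left out, the wild-type maximum lay at 3 h in 17 of them, at 0.5 h in 5 and at 1 h in 1. Among the same times the difference was widest at 3 h in 16. In the mutant, 22 of the 23 stayed within 0.8 of the 0 h level at 0.5, 1 and 3 h. Their mean log2(1 + CPM) per library averaged 3.62 ± 0.0557 in the mutant and 3.89 ± 0.1005 in the wild type at 0 h (SD, n = 3 each). At 3 h it averaged 3.58 ± 0.0313 in the mutant and 6.14 ± 0.230 in the wild type (SD, n = 3 each). These levels restate how the class was defined.

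**Figure D4:**
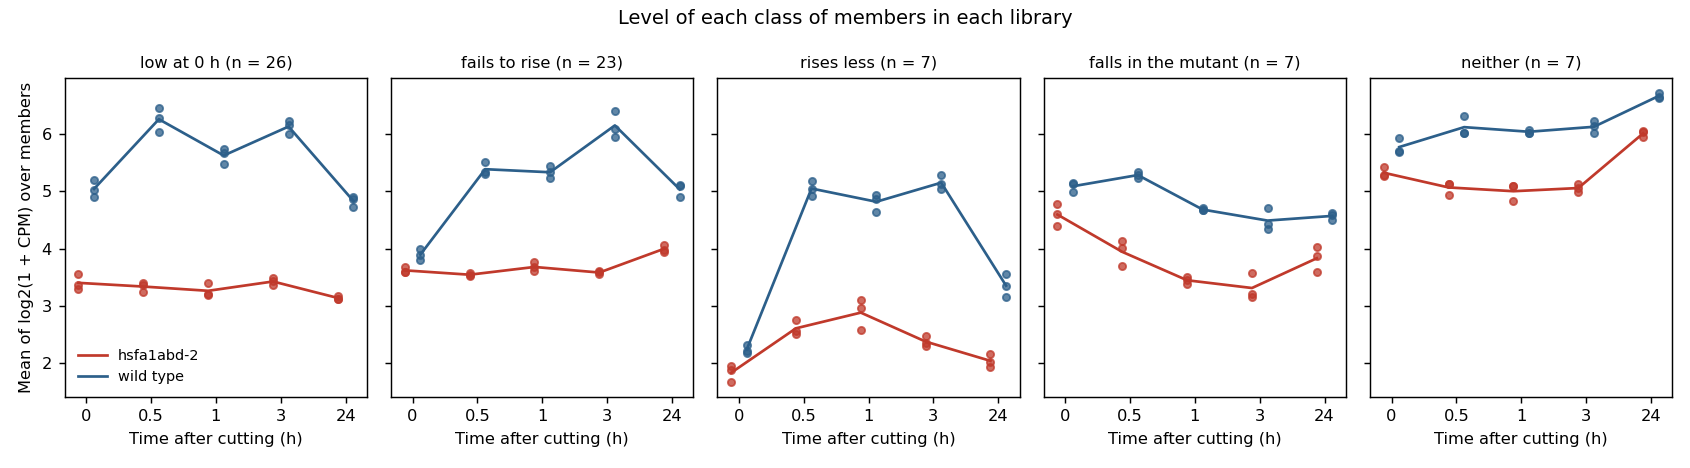
Mean log2(1 + CPM) over the features of each class in every library (points, n = 3 per group), with group means joined by lines, at 0, 0.5, 1, 3 and 24 h after cutting. Red is hsfa1abd-2 and blue the wild type; in the class failing to rise the mutant means are 3.62 at 0 h and 3.58 at 3 h, and the wild-type means 3.89 and 6.14.

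Feature 13280 took the most counts in this class. At 0 h it had 250, 271 and 253 CPM in hsfa1abd-2, against 358, 318 and 359 CPM in the wild type. At 0.5 h it had 238, 227 and 238 CPM in the mutant and 1052, 806 and 1023 CPM in the wild type. All wild-type libraries were above their 0 h range at the first time after cutting, and the mutant libraries were not. At 1 h the mutant held 337, 339 and 347 CPM, against 1353, 1072 and 1122 CPM in the wild type, and at 3 h the mutant held 332, 366 and 363 CPM and the wild type 1433, 1573 and 1795 CPM. At 24 h it had 380, 427 and 369 CPM in the mutant and 644, 693 and 653 CPM in the wild type, a log2 fold of -0.86 (SE about 0.111, edgeR adjusted p = 2.97e-06). The wild-type libraries at 24 h lay below those at 3 h and above every mutant library.

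Feature 27466 differed in the late course of the wild type. It had 200, 208 and 196 CPM in the mutant at 0 h and 338, 277 and 340 CPM in the wild type, and at 3 h the mutant had 159, 165 and 150 CPM and the wild type 571, 703 and 706 CPM. At 0.5 h the mutant held 188, 166 and 177 CPM and the wild type 745, 572 and 830 CPM. The mutant libraries at 0.5 and 3 h all lay below those at 0 h, while all wild-type ones lay above. At 24 h it had 342, 359 and 317 CPM in the mutant, above all its earlier libraries, against 597, 642 and 635 CPM in the wild type. The log2 fold at 24 h was -0.98 (SE about 0.114, edgeR adjusted p = 5.69e-07). The wild-type mean at 24 h was 87.3% of its highest early mean, against 41.4% in feature 13280.

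The fourth feature of the class in wild-type CPM had no call at 24 h. It had 138, 170 and 114 CPM in the mutant at 3 h, against 383, 380 and 387 CPM in the wild type. At 24 h it had 296, 298 and 301 CPM in the mutant and 274, 284 and 316 CPM in the wild type, and the libraries overlapped. The log2 fold at 24 h was -0.07 (adjusted p = 0.805, edgeR quasi-likelihood). The fit scales libraries by TMM, which the CPM printed here do not, and in log2(1 + mean CPM) the difference was 0.04.

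A few features of the class were hardly counted in the mutant at all. The thirteenth had 3 counts over the 15 mutant libraries, all in 1 library at 1 h, and 1311 over the 15 wild-type libraries. At 3 h it had 58.5, 85.4 and 87.4 CPM in the wild type. The 3 mutant libraries of 3 h had no count, and 3 counts over them correspond to 0.286 CPM, so the wild type was at least 269-fold higher. At 24 h, with 0.258 CPM for 3 counts over the mutant libraries, the wild type was at least 54.8-fold higher. At 0 h the wild type itself had 0, 1.095 and 0.795 CPM, close to the mutant's 0.

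The features ranked 22 and 17 were also hardly counted in the mutant. The one ranked 22 had 1 count over the 15 mutant libraries against 362 over the wild-type ones, and the one ranked 17 had 6 against 884. It had no count in any library at 0 h of either genotype, and at 3 h 0.274, 0 and 0.579 CPM in the mutant, against 41.4, 51.0 and 64.3 CPM in the wild type. In 11 of the 70 features the mutant mean stayed under 3 CPM at all 5 times, 5 of them failing to rise, 4 low at 0 h and 2 rising less. In 9 of the 70 the wild-type mean at 0 h was under 3 CPM, where a difference at 0 h could hardly be seen at this depth. The feature ranked 24 of those low at 0 h, at 1.64 CPM, is among the 9. In the features ranked 13, 17 and 22 failing to rise, the difference at 0 h in log2(1 + mean CPM) was -0.70, 0 and -0.12. With wild-type levels that near 0 it could not reach -0.8. Their place outside the class low at 0 h, and a small share at 0 h, were thus fixed by the scale. The same limit held for a feature rising less, with 0.297 CPM in the wild type and no mutant count at 0 h.

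The last feature of the class in wild-type CPM had a second, larger wild-type level at 24 h. It had 79.9, 58.0 and 57.9 CPM in the mutant at 24 h, against 148, 143 and 160 CPM in the wild type. At 0.5 h it had 3.55, 5.94 and 3.69 CPM in the mutant and 12.1, 12.7 and 8.61 CPM in the wild type. Both genotypes were thus far above their early levels at 24 h, with a log2 fold between them of -1.31 (edgeR adjusted p = 6.86e-05). Replicates were far apart in the fourteenth feature, which had 1.92, 5.62 and 20.5 CPM in the mutant at 3 h and 27.2, 3.49 and 47.7 CPM in the wild type. Its libraries overlapped at that time, so its place among the 70 rests on group means.

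In the 7 features rising less, the largest early increase ranged from 0.86 to 1.75 on the log2 scale in hsfa1abd-2, against 1.22 to 5.68 for wild-type explants. The first in wild-type CPM had 103, 86.7 and 89.1 CPM in the mutant at 3 h, against 163, 183 and 183 CPM in the wild type. It had started at 55.5, 51.1 and 45.9 CPM in the mutant and 78.8, 68.7 and 77.3 CPM in the wild type, with increases at 3 h in both genotypes and no overlap between them at either time. Class means of log2(1 + CPM) per library averaged 2.61 ± 0.122 in the mutant and 5.05 ± 0.136 in the wild type at 0.5 h (SD, n = 3 each). At 3 h they averaged 2.38 ± 0.0918 in the mutant and 5.15 ± 0.121 in the wild type.

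In the 7 features falling in the mutant, the largest early drop was -0.80 to -2.12 on the log2 scale in the mutant. The first in wild-type CPM had 155, 178 and 78.4 CPM in the mutant at 3 h and 370, 482 and 467 CPM in the wild type, and at 0 h 263, 241 and 215 CPM in the mutant and 451, 391 and 402 CPM in the wild type. The fourth had, at 0.5 h, 7.70, 12.8 and 5.11 CPM in the mutant against 39.8, 25.1 and 25.5 CPM in the wild type. At 0 h it had 25.3, 19.8 and 20.7 CPM in the mutant and 34.6, 36.4 and 42.6 CPM in the wild type. At 24 h it had 1.95, 1.31 and 1.89 CPM in the mutant and 3.93, 4.87 and 9.03 CPM in the wild type. Its wild-type mean dropped too, from 37.9 CPM at 0 h to 12.1 CPM at 1 h. The wild-type mean also dropped by 3 h in the third feature, from 34.4 to 11.2 CPM, and in the fifth, from 20.2 to 6.11 CPM. In the first it was 414 CPM at 0 h and 351, 412 and 440 CPM at 0.5, 1 and 3 h. A drop was thus not particular to the mutant in every feature of the class.

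The remaining 7 features moved by less than 0.8 upward in the wild type and downward in the mutant, by the definition of the group. The first in wild-type CPM had 111, 99.3 and 104 CPM in the mutant at 0 h and 167, 129 and 155 CPM in the wild type. At 3 h it had 103, 84.0 and 88.0 CPM in the mutant and 199, 231 and 239 CPM in the wild type. The sixth was much higher at 24 h in both genotypes, with 282, 171 and 185 CPM in the mutant and 475, 399 and 479 CPM in the wild type. At 0.5 h it had 21.3 to 27.8 CPM in hsfa1abd-2, against 41.5 to 49.6 CPM for wild-type explants.

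Calls at 24 h were made in every class. The mutant was called lower in 24 of the 26 features low at 0 h, 17 of the 23 failing to rise, 6 of the 7 rising less, 5 of the 7 falling in the mutant and 5 of the other 7, against 10.3% of all tested features. Median log2 folds were -1.93, -0.98, -1.80, -0.86 and -0.63 in these classes. In log2(1 + mean CPM), 42 of the 70 differed by -0.8 or more strongly at 24 h, against 1.82% of the rows with 10 CPM or more. The difference at 24 h was smaller than the mean early one in 62 of the 70, a comparison with values that the rule selected for their size. It was larger than the difference at 0 h in 44 of the 70.

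**Figure D5:**
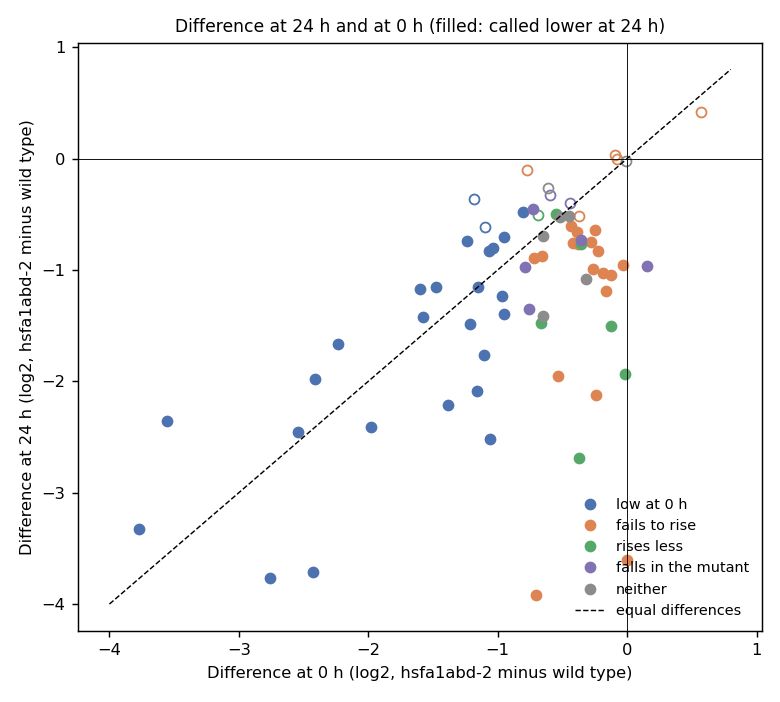
For each of the 70 features the difference at 0 h is on the x axis and that at 24 h on the y axis, as hsfa1abd-2 minus wild type in log2(1 + mean CPM). Colours mark classes, filled points the 57 features called lower at 24 h by edgeR's quasi-likelihood test, and the dashed line equal differences; 2 features lie at or above 0 on the y axis.

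Changes from 0 to 24 h were tested within each genotype, since neither time entered the choice. In hsfa1abd-2, 18 of the 70 were higher at 24 h than at 0 h and 11 lower, against 26.6% and 21.3% of all tested features. In the wild type, 39 were higher and 13 lower, against 30% and 25.1% of all tested features. The wild-type level at 24 h had a median of 28.5% of the highest early mean over the 70 features, with a range from 4.32% to 1352%. Each genotype was compared with its own libraries at 0 h.

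Tested directly, the change from 0 to 24 h differed between genotypes in 2 of the 70 features, both with the lower change in the mutant, against 1.45% called with a lower and 1.71% with a higher change over all tested features, and 1.86% and 2.15% of the rows with 10 CPM or more. At an unadjusted p under 0.05 it differed in 22 of the 70 (31.4%), compared with 16.8% of all tested features. The count of 2 is a share near the background of calls and depends on the fit. It was 11 in a fit of the 12 compared libraries alone and 5 by DESeq2, where calls over all features were 1645 and 847, against 584 in the edgeR fit of all 30 libraries. It was 4 when replicate 1 of the wild type at 0 h, or that at 24 h, was left out, and 1 without wild-type 0 h replicate 2, hsfa1abd-2 0 h replicate 2 or hsfa1abd-2 24 h replicate 3.

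The first of the 2, chosen after its values were seen, is the eleventh feature failing to rise in wild-type CPM. It had 4.14, 4.46 and 4.33 CPM in the mutant at 24 h, against 14.2, 25.6 and 26.55 CPM in the wild type. At 0 h it had 7.23, 5.45 and 6.89 CPM in the mutant and 10.2, 7.67 and 5.83 CPM in the wild type, and the libraries overlapped. The change was different by -2.17 log2 units, mutant minus wild type (SE about 0.414, edgeR adjusted p = 0.00324). At 3 h, which the rule used, it stood at 7.13, 4.73 and 7.23 CPM in the mutant and 61.5, 84.3 and 101 CPM in the wild type.

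The other is the second feature rising less, with 0.487, 0.787 and 0.541 CPM in the mutant at 24 h and 4.19, 4.87 and 6.29 CPM in the wild type. At 0 h it had 1.21, 2.01 and 0.574 CPM in the mutant, against 0.927, 1.095 and 1.85 CPM in the wild type, with libraries that overlapped. Its interaction was -3.02 log2 units, mutant minus wild type (SE about 0.738, edgeR adjusted p = 0.0189). This size rests on few counts, since 3 counts correspond to 0.731, 0.787 and 0.811 CPM in the mutant libraries at 24 h. This call was lost without wild-type 0 h replicate 2 (-2.92, adjusted p = 0.0522), hsfa1abd-2 0 h replicate 2 (-2.58, adjusted p = 0.1) or hsfa1abd-2 24 h replicate 3 (-2.96, adjusted p = 0.0524).

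By row position, no 2 of the 70 features were adjacent in the table, and the nearest lay 6 rows apart. No 2 of them had identical counts across libraries.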

How the data were processed

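The authors deposited raw counts per feature and library, whole numbers that are not normalized. Per the submitters' processing notes, fastp and STAR were used with the TAIR10 build. Versions, counting tool, strand setting and annotation: not given in the sources used here. Per the labels' protocols, a Qiagen kit gave the RNA and a stranded Kapa kit the mRNA libraries. Paralogs, overlapping genes and antisense partners may be split or merged.

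Counts were tested with edgeR 4.0.16 and limma 3.58.1 in R 4.3.3: filterByExpr (minimum count 10, minimum total 15), TMM, and 1 robust quasi-likelihood fit of 30 libraries in 10 groups without a replicate term (biological coefficient of variation 13.1%, 20 residual degrees of freedom). Adjusted p-values are Benjamini-Hochberg values over 18526 features, with a threshold of 0.05. SEs are approximate, the log2 fold over the root of F. DESeq2 1.42.0 was an alternative. Rule and test were checked on simulated counts. For the rule, the planted drops and CPM lay well past its limits and all libraries had equal depth. That check therefore does not cover features near the limits or the shallow library. Members and classes were chosen with earlier results of these data known. Numbered features are the 2 with the highest wild-type CPM, averaged over 0.5, 1 and 3 h, in each of the 2 largest classes; others are given by rank in that order and were picked after their values were seen. Intervals and floors of 3 counts cover counting error only. A list of heat shock genes could not be matched and was not tested.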

Additional observations from a re-analysis of the deposited data

Results flagged for a closer look

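The change from 0 to 24 h differed between hsfa1abd-2 and the wild type in 2 of the 70 features by edgeR's quasi-likelihood test of the interaction, a share near the background of 1.45% called with a lower and 1.71% with a higher change over all tested features. Features with hardly any mutant count at 0 and 24 h could hardly be called by this test and are left undecided. The differences were -2.17 on the log2 scale in the eleventh feature failing to rise and -3.02 in the second feature rising less. In the latter no mutant library held more than 3 counts at 24 h. The first call was kept without each of the 12 compared libraries in turn. The second was lost without wild-type 0 h replicate 2, hsfa1abd-2 0 h replicate 2 or hsfa1abd-2 24 h replicate 3, with adjusted p of 0.0522, 0.1 and 0.0524 in edgeR.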

How the results depend on the processing

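The number of features was 111 with a limit of -0.6, 48 with -1.0, 75 and 63 with 5 and 20 CPM, 76 with TMM scaling, 72 with a pseudocount of 0.5, and 64 to 74 without single libraries. With a class step of 0.6 in place of 0.8, 38 features were low at 0 h and 20 failing to rise, and with 1.0 they were 22 and 24; of those failing to rise, 18 and 21 were shared with the 23. Features low at 0 h numbered 24 to 28 and those failing to rise 21 to 25 without single 0 h libraries, and 26 and 23 without the shallow library, an alternative chosen after seeing the data. Calls at 0 h were 21 to 27 without single libraries and 28 to 38 under the other settings, while calls over all tested features were 74 to 279 and 252 to 912, against 346 as reported. Those at 24 h were 54 to 58 throughout, with 2508 to 4415 over all features, and the 4 numbered features kept their direction and call at 24 h. Features with a different change from 0 to 24 h numbered 1 to 4 without single libraries, 11 with the compared libraries alone and 5 by DESeq2, with 248 to 653, 1645 and 847 calls over all features; the cause was not tested. With the replicate number as a block the counts were 34, 57 and 2 at 0 h, at 24 h and for the change, as without it. Same-numbered libraries of the genotypes had correlated deviations of r = -0.18 to 0.07, none over 0.1, so the numbers were not taken to pair the libraries. Best with their own number were 0 of 3 mutant and 0 of 3 wild-type libraries at 0 h, and 1 of 3 and 2 of 3 at 24 h. Depth limits features near 0 CPM, above all at wild-type 0.5 h.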
